A study of Capra hircus with 3 samples.

Results

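Seed-shifted variants are small RNA tags whose first bases match those of an abundant tag, except that they start 1 base later or 1 base earlier. A tag is a distinct sequence together with the number of reads that carry it. The 100 parents were chosen by measured values, namely as the tags of 21 to 23 nt with most reads summed over the 3 libraries, so their abundance is a description and was not tested. A tag of 18 nt or longer was a later-start variant when its first 17 bases equalled bases 2 to 18 of a parent, and an earlier-start variant when its own bases 2 to 18 equalled the first 17 bases of a parent. These criteria found 8208 of the 4043974 distinct tags, of which 4447 were later-start and 4027 earlier-start variants, with 266 that were both and 24 that were parents themselves. The last parent held 25300 reads and the next tag in the ranking held 25204.

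Skin of adult Shanbei White cashmere goats was sampled at 3 stages of the hair follicle cycle, namely anagen (growth), catagen (regression) and telogen (rest). For each stage the RNA of 10 goats was pooled into 1 small RNA library, so that no group had a second library and the stage cannot be told apart from the pool or from library preparation. The labels named no treatment and no genotype beyond the breed, and the skin was whole tissue rather than isolated follicles, in which the epithelial miRNAs miR-203 and miR-205 and the muscle miRNAs miR-1 and miR-206 were all among the parents. Values for the 3 stages are given in the order anagen, catagen, telogen unless stated. The libraries held 15997828, 18111912 and 27016012 clean reads, and shifted tags made up 4.47%, 5.93% and 5.44% of them, as 4239, 4251 and 5396 distinct tags.

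A microRNA (miRNA) is cut out of a hairpin precursor by Drosha and then Dicer, and is loaded into an Argonaute protein that it guides to target mRNAs. Target choice rests mainly on the seed, bases 2 to 8 counted from the 5′ end, so that a molecule of the same miRNA that starts 1 base away carries a different seed. Such 5′ variants are one class of isomiR and are known to be common for some mammalian miRNAs, such as miR-101, miR-140 and miR-203, and rare for others.

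The parents fell into 52 distinct starts, since parents with the same first 17 bases were counted as 1 start. Of these, 40 starts belonged to 36 named miRNAs and 12 could not be named, 5 of which came from parents ending in CCA, the bases found at the 3′ end of mature tRNAs. Reads with the start of a parent made up 50.9%, 50.3% and 42.1% of the clean reads. Each shift is given below as a percent of the reads that carry the parent's own 5′ start, and can exceed 100 where the shifted form is the more abundant.

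The following sequences show starts from which few reads deviated. For let-7a/let-7c and miR-143 the most abundant later-start and earlier-start tags are given as well, and for miR-1 the start alone. They are given 5′ to 3′ as the reads were written, with T for U, and capitals mark the seed of each molecule. The let-7a/let-7c start was matched on its first bases, which both miRNAs share, so their reads were counted together. Its most abundant earlier-start tag ends in tatggtt and the start shown ends in tatagtt. That tag is thus not the start shown moved by 1 base along its whole length.
let-7a/let-7c start: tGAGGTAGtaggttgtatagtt
let-7a/let-7c, 1 base later: gAGGTAGTaggttgtatagtt
let-7a/let-7c, 1 base earlier: tTGAGGTAgtaggttgtatggtt
miR-143 start: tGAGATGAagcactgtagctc
miR-143, 1 base later: gAGATGAAgcactgtagctc
miR-143, 1 base earlier: cTGAGATGaagcactgtagctc
miR-1 start: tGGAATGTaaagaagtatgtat

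The next sequences show miRNAs that were read from 2 neighbouring 5′ ends, each end with its most abundant tag of 21 to 23 nt. miR-133a had too few reads to be a parent. The list is not complete, as miR-1839, with a later-start percent of 13.7% over the 3 libraries, is not in it.
miR-199a-3p, earlier end: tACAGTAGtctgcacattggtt
miR-199a-3p, later end: aCAGTAGTctgcacattggtt
miR-101, earlier end: gTACAGTActgtgataactgaa
miR-101, later end: tACAGTACtgtgataactgaa
miR-203, earlier end: gTGAAATGtttaggaccactag
miR-203, later end: tGAAATGTttaggaccactag
miR-2284x, earlier end: tGAAAAGTtcgttcgggttttt
miR-2284x, later end: gAAAAGTTcgttcgggtttttc
miR-140, earlier end: tACCACAGggtagaaccacgga
miR-140, later end: aCCACAGGgtagaaccacggac
miR-10a, earlier end: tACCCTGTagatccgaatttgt
miR-10a, later end: aCCCTGTAgatccgaatttgtga
miR-10b, earlier end: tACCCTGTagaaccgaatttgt
miR-10b, later end: aCCCTGTAgaaccgaatttgtgt
miR-133a, earlier end: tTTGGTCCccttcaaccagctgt
miR-133a, later end: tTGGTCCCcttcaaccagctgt

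The last set shows the 3 unnamed starts with most reads, the first of which deviated little to the later side.
unnamed start A: cGCGACCTcagatcagacgtg
unnamed start B: gAAGCGGTtgactttactcttt
unnamed start C, which ends in CCA: tCGTTTCCcggccaatgcacca

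The miRNA starts fell on both sides of a limit of 1%. In 24 of the 40 miRNA starts both shifts stayed under 1% of the start reads over the 3 libraries together, and these are called firm here. In the other 16, called loose, at least 1 shift reached 1%. None of the 12 unnamed starts had both shifts under 1%, and of the 949 other starts formed by 21 to 23 nt tags with at least 1000 reads, 115 did. The median later-start percent was 0.144% over the 40 miRNA starts, 49.2% over the 12 unnamed starts and 63.8% over the 949 other starts. For the earlier start the medians were 0.101%, 58.6% and 67.9%. Of the 12 unnamed starts, 8 lay 1 base from another parent's start. Their reads enter both as start and as shifted reads, so the 12 are not separate molecules. In 270 of the 949 starts the later form, and in 292 the earlier form, had more reads than the start itself. A shift by 2 bases was rarer still in the miRNA starts, with a median of 0.0178% for the later and 0.0187% for the earlier side.

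Summed over the 40 miRNA starts, later-start reads came to 3.81% (95% interval 3.80 to 3.82), 5.56% (5.55 to 5.58) and 5.23% (5.22 to 5.25) of start reads. Earlier-start reads came to 2.03% (2.02 to 2.04), 2.78% (2.77 to 2.79) and 2.81% (2.80 to 2.82). These sums were carried by starts that lie 1 base from another parent's start. Without shifted reads that carry the start of another parent, the later-start percent was 0.430%, 0.478% and 0.403% and the earlier-start percent 0.408%, 0.633% and 0.565%. All intervals here are Wilson intervals of the shifted reads among shifted plus start reads, rewritten as a percent of the start reads. Their width reflects counting alone, as the libraries carried no molecular identifiers and PCR copies of a molecule are counted as separate reads. For the sums over 40 starts even counting error is only approximated. Reads of starts that lie 1 base apart entered these sums both as start reads and as shifted reads.

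The let-7 family, a group of miRNAs with a common seed that is abundant in differentiated tissue, kept its 5′ end in nearly all reads. Its 7 starts among the parents had later-start percents of 0.0533 to 0.121% and earlier-start percents of 0.0336 to 0.363% over the 3 libraries. The most abundant of them, shared by let-7a and let-7c, had 3553, 1823 and 347 later-start reads, which were 0.142% (95% interval 0.137 to 0.147), 0.0850% (0.0812 to 0.0890) and 0.0116% (0.0104 to 0.0129) of its start reads. The anagen percent was thus the highest and the telogen percent the lowest, and no intervals overlapped. Its earlier-start reads, numbering 3073, 3365 and 4256, were 0.123%, 0.157% and 0.142%, with no such fall towards telogen.

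Other members of the family had the same order on the later side. let-7f had 3886, 2170 and 293 later-start reads, or 0.192%, 0.142% and 0.0144%, and let-7b had 2313, 1101 and 303, or 0.148%, 0.0758% and 0.0139%. let-7g had 202, 78 and 5, or 0.113%, 0.0493% and 0.00254%, so that its telogen value rests on 5 reads. The earlier-start percent of let-7g was instead lowest in anagen, at 0.253%, and highest in telogen, at 0.454%, with 0.374% in catagen.

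The starts of miR-1, miR-143, miR-26a and miR-103/miR-107 were firm as well. miR-1, which is specific to striated muscle, had levels of 3897, 73848 and 20009 reads per 1000000 clean reads (TPM). Its later-start reads numbered 65, 302 and 14, or 0.104%, 0.0226% and 0.00259% of its start reads. The later-start percent was highest where the miRNA itself was lowest. It was lowest in telogen, however, and not in catagen, where the level was highest. let-7a/let-7c had the same order of percents with levels of 156552, 118431 and 110900 TPM. In whole skin, fewer cells of a type and less RNA per cell cannot be told apart. miR-143, an miRNA of smooth muscle and fibroblasts, had 225, 68 and 10 later-start reads, or 0.113%, 0.0505% and 0.00322%, and an earlier-start percent of 0.304%, 0.506% and 0.388%. miR-26a, a widely expressed miRNA, had later-start percents of 0.385%, 0.242% and 0.136%. miR-103 and miR-107, a pair that is counted together here because their start is shared, had 0.127%, 0.0452% and 0.0127%.

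Over the 24 firm miRNA starts later-start reads were most frequent in anagen and least frequent in telogen. Summed over them, later-start reads were 0.161%, 0.0853% and 0.0187% of start reads, and the medians over starts were 0.154%, 0.0869% and 0.0204%. The order anagen above catagen above telogen held in 19 of the 24 starts. Earlier-start reads summed to 0.0955%, 0.0961% and 0.112%, and the order anagen above catagen above telogen was seen in 1 of the 24 starts. The later-start percent was highest in anagen in 35 of all 52 starts, and in 44.1% of the 644 starts with enough reads, members included. It was lowest in telogen in 37 of 52 starts, against 40.4% of the 644. The earlier-start percent was highest in telogen in 29 of 52 starts, against 36.9% of 632.

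Some other measures of the libraries moved with the later-start percent. In the filtering record of the authors, inserts shorter than 18 nt were 3.38%, 2.66% and 0.566% of high-quality reads, 5′ adapter contaminants were 0.184%, 0.170% and 0.0578%, and reads without an insert were 0.620%, 0.434% and 0.281%. These 3 classes were in the order of the later-start percent of the firm starts. Reads without a 3′ adapter were not, at 0.343%, 0.0290% and 0.163%. Reads of 18 to 20 nt with the parent's own start had a median share of 6.77%, 1.85% and 2.89% of start reads over the 24 firm starts, which is highest in anagen but lowest in catagen. The part of these differences in the later-start percents was not tested.

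The percents were compared between each pair of libraries with a two-sided Fisher's exact test of shifted reads against start reads. A value was called at p under 0.01 and an absolute log2 ratio of the percents above 1, among starts with at least 1000 start reads in both libraries and at least 10 shifted reads in both together. These tests compare libraries, since there was 1 for each stage, and a percent with 0 shifted reads was set to 3 reads for the ratio. Between anagen and catagen the later-start percent was called higher in anagen for 10 of 52 starts, all of them miRNA starts, where 4.04% of the 643 starts tested were called in this direction. It was called lower in anagen for 0 of 52, with 1.71% over all starts. The median log2 ratio was 0.33 over the 52 starts and 0.03 over all 643.

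Between anagen and telogen the later-start percent was called higher in anagen for 19 of 50 starts, all of them of miRNAs and 17 of them firm, against 6.22% of the 675 starts tested. It was called lower for 0 of 50, with 1.33% over all starts. The median log2 ratio was 0.47 over the 50 starts, 1.17 over the 38 miRNA starts among them and 0.07 over all 675. Between catagen and telogen it was called higher in catagen for 15 of 52 starts, of which 14 were firm miRNA starts, against 3.51% of 713, and lower for 0 of 52, with 0% over all starts. The later-start calls were thus in a single direction in all 3 pairs, and their share of the starts was above that over all starts. The 949 other starts came from tags with fewer reads, include 1-base variants of the parents and had a higher median later-start percent, at 63.8%. The part of these differences in the shares called was not tested.

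Earlier-start percents gave few calls. Anagen was called higher than catagen for 3 of 50 starts, with 2.45% of 613 over all starts, and lower for 1, with 1.79%. Anagen was called higher than telogen for 1 of 52, with 0.452% of 663, and lower for 3, with 2.41%. Catagen was called higher than telogen for 0 of 52, with 0.141% of 708, and lower for 3, with 1.84%. The median log2 ratios over the starts of the parents were 0.01, -0.16 and -0.19 in the 3 pairs, and 0.03, -0.03 and -0.05 over all starts tested.

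The largest called ratios belonged to firm starts with few shifted reads in telogen. The log2 ratio of anagen over telogen for the later start was 5.47 for let-7g (95% interval 4.22 to 7.11; exact p = 1.36e-57), 5.33 for miR-1 (4.48 to 6.28; exact p = 2.5e-50) and 5.14 for miR-143 (4.23 to 6.22; exact p = 7.94e-78). Between catagen and telogen it was 4.28 for let-7g (2.99 to 5.94; exact p = 1.21e-21) and 3.97 for miR-143 (3.01 to 5.10; exact p = 1.74e-25). These ratios rest on 5, 14 and 10 telogen reads for let-7g, miR-1 and miR-143.

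Between anagen and catagen the largest called ratio of a miRNA start was on the earlier side of miR-26a, with 157, 36 and 125 reads, or 0.289%, 0.0453% and 0.0856%. Its log2 ratio of anagen over catagen was 2.67 (2.14 to 3.24; exact p = 5.62e-31). The added base was C in 91.1%, 36.1% and 14.4% of these reads. The later side followed for miR-206, a skeletal muscle miRNA with the seed of miR-1, at 2.46 (0.45 to 4.05; exact p = 0.00924) from 4 reads in anagen and 19 in catagen. This call was lost after Benjamini-Hochberg adjustment and, at 2.12, with tags of 21 to 23 nt only, and per 1000000 clean reads the log2 ratio was -2.07. miR-29a, which is known to target collagen mRNAs, had a later-start log2 ratio of 2.26 (1.69 to 2.85; exact p = 1.87e-18), from percents of 0.241%, 0.0504% and 0.0103%.

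Among the 16 loose miRNA starts, 8 lay 1 base from each other as pairs of ends of 4 miRNAs, namely miR-199a-3p, miR-101, miR-203 and miR-2284x. For each of them the share of the earlier end among reads of both ends is given next, since the same reads enter as a shift of either start.

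miR-203, an epidermal miRNA that is known to promote keratinocyte differentiation, was read from both ends about equally. The earlier end had 32000, 35728 and 52566 reads and the later end 30262, 38208 and 51972. The earlier end was 51.4% (95% interval 51.0 to 51.8), 48.3% (48.0 to 48.7) and 50.3% of both. The range over stages was thus narrow, although none of the intervals overlapped. The earlier end of miR-203 was itself extended by a further base in 4.88%, 5.37% and 4.80% of its reads, and that base was T in 98.5%, 98.7% and 97.6% of them.

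miR-101, a widely expressed miRNA, also had 2 abundant ends. The earlier end, which adds a G, had 31794, 28036 and 33560 reads and was 41.8%, 43.5% and 45.0% of both ends. Expressed as a shift of the later end it was 72.0%, 77.1% and 81.9%, and so lowest in anagen and highest in telogen. The earlier-start reads beyond the G end numbered 3, 2 and 29. The log2 ratio of catagen over telogen for this value was -3.60 (-6.71 to -1.62; exact p = 4.18e-06), the largest drop among called values of miRNA starts, and 20 of the 29 telogen reads began with a further G.

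miR-199a-3p, an miRNA of mesenchymal cells, had its main end at aCAGTAGT and an earlier end with a T before it. The main end had 162794, 330243 and 382208 reads and the earlier end 38047, 81714 and 104757, so that the earlier end was 18.9%, 19.8% and 21.5% of both. Earlier-start reads were 23.4% (23.1 to 23.7), 24.8% (24.6 to 25.0) and 27.4% (27.3 to 27.6) of the main end's reads, and T was the added base in 99.8%, 99.9% and 99.8% of them. Later-start reads were 3.57%, 3.95% and 3.31%. A further base before the earlier end was rare, at 7, 16 and 50 reads. That rarest form has the seed TACAGTA, which is also the seed of the earlier end of miR-101.

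miR-2284x, a member of a miRNA family that is numerous in ruminants, was read 24020, 41046 and 48276 times from its earlier end and 24265, 36104 and 38139 times from the later end. The earlier end was 49.7%, 53.2% and 55.9% of both. Its share was lowest in anagen and highest in telogen, with intervals that did not overlap.

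miR-140, which is known from cartilage, differed most between libraries among the miRNAs with 2 abundant ends. Its earlier end, with an added T in 99.9% of the reads, was 41.1% (40.5 to 41.8), 85.8% (84.6 to 86.9) and 57.7% (57.0 to 58.4) of the later end. The later end had 3025, 2597 and 2585 TPM in the 3 stages and the earlier end 1244, 2226 and 1490 TPM. Between anagen and catagen the earlier end thus changed more than the later end. In telogen, against anagen, the earlier end was higher and the later end lower. The log2 ratio of anagen over catagen was -1.06 (-1.08 to -1.04), with an exact p too small to be computed, and the ratios with telogen were not called. Per 1000000 clean reads the earlier end had a log2 ratio of -0.84, which was not called. Its later-start percent varied little, at 2.71%, 2.84% and 2.65%.

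miR-10a and miR-10b, a pair encoded in the HOX clusters that share a seed, deviated on the later side. For miR-10a the later start had 1599, 2245 and 4255 reads, or 14.4% (13.7 to 15.2), 11.4% (10.9 to 11.9) and 13.5% (13.1 to 13.9). For miR-10b it had 1573, 2797 and 4268 reads, or 20.9%, 17.9% and 20.2%. Catagen was lowest in both, and miR-10b was above miR-10a in each library. Their earlier-start percents stayed at or under 0.199% in each library, which puts their deviation on the later side.

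No percent of miR-1839, miR-320a, miR-191 or miR-23a/miR-23b was called between libraries. miR-1839 had later-start percents of 14.0%, 13.3% and 13.8%. miR-320a had 6.66%, 6.17% and 6.17%, with 1.17%, 1.24% and 1.32% on the earlier side. miR-191 had 6.49%, 4.93% and 4.35%. miR-23a and miR-23b, whose reads were counted together, deviated to both sides, with 1.49%, 1.38% and 1.48% later and 1.67%, 1.39% and 1.55% earlier. miR-29a was loose on the earlier side alone, with 1.26%, 1.99% and 1.62%.

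A single added base dominated the earlier-start reads in most loose starts, whereas the added base was mixed in most firm ones. A single base made up over 90% of the earlier-start reads in 11 of the 16 loose miRNA starts, in 2 of the 24 firm ones and in 11 of the 12 unnamed starts. The 2 firm ones were let-7g and miR-143, both with C, at 97.0% and 94.0% over the 3 libraries. The loose starts without such a base were the earlier ends of miR-199a-3p, miR-2284x and miR-101, together with miR-191 and miR-10b. Their earlier-start percents were at most 0.0521% over the 3 libraries, so their base shares rest on few reads. The median share of the most frequent base was 97.5% in the loose, 54.3% in the firm and 99.8% in the unnamed starts. The most frequent base was the same in the 3 libraries for 10 of the 24 firm starts and for all 12 unnamed starts. Of these 12, 8 lay 1 base from another parent's start.

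In the firm starts the added base differed between the libraries. C was the most frequent added base in 15, 12 and 4 of the 24 starts, and T in 1, 1 and 9. Several of these counts rest on few earlier-start reads, in anagen 1 for miR-206, 3 for miR-125b and 7 for miR-221. miR-25 had 0 such reads in anagen and no most frequent base there. Summed over the 24 starts, C made up 49.0%, 39.9% and 34.7% of earlier-start reads, and T 32.0%, 35.1% and 43.0%. Without the let-7 family the C share was 77.5%, 64.6% and 58.1% and the T share 3.90%, 7.52% and 17.6%, of 1076, 1489 and 2282 reads. Most C reads of this sum were of miR-143, with 558 of 834, 658 of 962 and 1123 of 1325. The C share of miR-143 itself was 92.5%, 96.6% and 93.2%, so the summed C shares do not describe the other starts. For miR-1 the added base was T in 28.6% of 14 reads, 19.5% of 353 and 62.0% of 216, and for let-7f T in 22.8%, 24.9% and 44.2%.

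The most frequent 3′ end of shifted reads was in most starts that of the parent. Later-start reads ended most often at the usual end of the start in 43 of 52 starts, and earlier-start reads in 42 of 52. Over the 40 miRNA starts the median share of reads at the usual end was 59.8% for start reads, 47.3% for later-start reads and 48.1% for earlier-start reads. For let-7a and let-7c 76.8% of start reads, 71.4% of later-start reads and 57.9% of earlier-start reads ended at base 22 of the parent. For miR-320a 19.3% of later-start reads ended at the usual end. For miR-10a the later-start reads ended most often 2 bases beyond the usual end, which is seen in the sequences above.

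By first base, 24 of the miRNA starts began with T, 10 with A, 4 with G and 2 with C. The median later-start percent of the T starts was 0.188%, 0.102% and 0.0204%, and that of the A starts 0.947%, 0.761% and 0.767%. The 4 G starts had medians of 49.0%, 55.4% and 50.9%, and 3 of them were members of the paired ends above, with miR-145 as the exception at 0.0933% over the 3 libraries. The 2 C starts, miR-191 and miR-25, had medians of 3.49%, 2.66% and 2.33%. On the earlier side the medians were 0.0939%, 0.0498% and 0.0754% for T starts and 0.691%, 0.610% and 0.647% for A starts. Starts with the same first base thus differed widely among themselves, and the number of starts other than T is small.

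The other families fixed for description held few starts. The 2 miR-26 starts had later-start percents of 0.0546 and 0.214% over the 3 libraries and earlier-start percents of 0.0579 and 0.114%. The miR-29 family had 1 start and miR-103/miR-107 had 1 start among the parents, and the miR-30 and miR-200 families had none.

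Other miRNAs known in mammals for a second 5′ end had too few reads to be parents. miR-133a, a muscle miRNA, was read from 2 ends, and the earlier end was 71.8% (59.1 to 87.4), 68.7% (65.8 to 71.7) and 71.4% (67.2 to 75.8) of the later end. The later end itself was at 14.9, 283 and 93.7 TPM, so that the intervals of the ratio overlapped while the level differed between the libraries. miR-183, an epithelial and sensory miRNA, had earlier-start percents of 11.2%, 11.4% and 12.5%, and later-start reads numbered 1, 0 and 0 of 2278, 1757 and 2427 start reads, where a count of 0 allows up to 0.171% in catagen and 0.124% in telogen. The miR-142 start, of a haematopoietic miRNA, had both shifts by 1 base under 0.5% in each library, from 979, 1097 and 2065 start reads. Shifts by 2 bases were not counted for this start, so an end 2 bases away would not be seen. For miR-411, miR-126-5p, miR-223, miR-9 and miR-124 no start with at least 1000 reads was found under the annotation used.

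Unnamed start C, which ends in CCA, had later-start percents of 49.0%, 76.1% and 72.2% and earlier-start percents of 28.7%, 43.6% and 54.3%, with T added in 99.7%, 99.9% and 99.8% of the reads. Shifts of the same start by 2 bases were also frequent, at 35.7% later and 69.0% earlier over the 3 libraries, and 95.2% of its start reads, 95.8% of its later-start reads and 92.7% of its earlier-start reads ended after the CCA. The 3′ end was thus fixed and the 5′ end was not.

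Unnamed start B had a second abundant end on the later side alone. Its later-start percents were 39.4%, 47.5% and 46.1%, while its earlier-start reads numbered 20, 29 and 92, or 0.0404%, 0.0502% and 0.131%. The last was called higher in telogen than in both other libraries, with log2 ratios of -1.70 for anagen over telogen (exact p = 1.33e-07) and -1.38 for catagen over telogen (exact p = 2.22e-06). Unnamed start A had a firm later side, with 0.348%, 0.263% and 0.256%, and an earlier side of 3.39%, 3.03% and 3.76% with A added in over 99% of reads. Reads of 18 to 20 nt were 49.0%, 45.5% and 34.8% of its start reads.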

How the data were processed

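The files were deposited after quality and adapter filtering by the authors, with a shortest insert of 18 nt, and identical clean reads had been collapsed into tags. The deposited count of a tag is a number of reads without normalisation. Program versions for this step are not given in the sources used here. The count of reads removed in each class was taken from the authors' filtering record.

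Starts were matched on 17 bases in Python 3.11.15 with numpy 2.4.6 and scipy 1.17.1, without a genome. TPM is reads per 1000000 clean reads. Pairs of libraries were compared by Fisher's exact test. A quasi-likelihood count model could not be fitted, because no stage had a second library. A minimum of 1000 reads per tag gave 1001 starts as background. The counting and the calls were tested on simulated data with known answers. Depth limits the rarest shifts: 0 of 1000 start reads would allow up to 0.3%.

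The members and lists were chosen with earlier results of these data known. Starts were named from the annotation in the supplements of the study, whose copy is shortened. For 11 starts absent from it (let-7g, let-7d, miR-24, miR-26b, miR-29a, miR-145, miR-191, miR-203, miR-221 and miR-25) the sequence known in mammals was used, a choice made after the tags were seen. Precursor hairpins were not used here. Named in the text were the 10 miRNA starts with most reads, the 5 with the highest percent on each side, the 3 called miRNA values with the largest ratio in each pair, the 3 unnamed starts with most reads and miRNAs known for alternative 5′ ends. The other miRNAs named were chosen after their values were seen. Alternatives were an 18-base match, tags of 21 to 23 nt only, other numbers of parents, other tests, other minimum reads and Benjamini-Hochberg adjustment.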

Additional observations from a re-analysis of the deposited data

How the results depend on the processing

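No paired analysis was possible because each stage has 1 library, and no library could be left out of a group. Matching on 18 bases moved no percent by over 1.5 times in 104 values, and using tags of 21 to 23 nt only moved 19 of 104. For anagen, catagen and telogen, the summed later-start percent of miRNA starts was 3.61%, 5.52% and 5.27% with tags of 21 to 23 nt only, 0.430%, 0.478% and 0.403% without starts of other parents, 5.56%, 7.36% and 7.28% without the start with most reads, 3.29%, 5.31% and 5.005% with 50 parents and 4.40%, 6.02% and 5.81% with 200 parents. The earlier-start percent was 1.86%, 2.72% and 2.73%, then 0.408%, 0.633% and 0.565%, then 2.94%, 3.65% and 3.86%, then 0.669%, 1.17% and 1.24%, and then 4.09%, 6.48% and 6.30% under the same alternatives. Starts added with 200 parents were named by annotation only.

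Among the 52 starts 14 values were called between anagen and catagen, 23 between anagen and telogen and 18 between catagen and telogen. With shifted reads per 1000000 clean reads in place of the percents, which also carries the level of the miRNA, the counts were 31, 34 and 30, of which 9, 21 and 17 were among the original calls. With at least 100 shifted reads they were 9, 12 and 5. The later-start log2 ratio of miR-206 for anagen over catagen was -2.07 per 1000000 clean reads, against 2.46 for the percents, and it was not called after Benjamini-Hochberg adjustment or with tags of 21 to 23 nt only. The earlier-start log2 ratio of miR-140 for anagen over catagen was -0.84 per 1000000 clean reads and not called. The other called ratios whose values are given in the text kept their direction and call under the alternatives that gave them a value. Fisher's and Audic and Claverie's exact tests called the same values between anagen and catagen and between anagen and telogen (14 of 14 and 23 of 23). Between catagen and telogen the latter called 19, which included all 18 of the former.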
